A study of Mus musculus with 5 samples.

Results

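The subunits of the oxidative phosphorylation system were examined at the RNA level in mouse neural stem/progenitor cells (NSPCs) with and without p75NTR, the neurotrophin receptor encoded by Ngfr. These proteins form the respiratory chain of the inner mitochondrial membrane. Complex I (NADH dehydrogenase) and complex II (succinate dehydrogenase) pass electrons to ubiquinone, complex III (the cytochrome bc1 complex) passes them to cytochrome c, complex IV (cytochrome c oxidase) reduces oxygen, and complex V (ATP synthase) uses the resulting proton gradient to make ATP. Most subunits are encoded in the nucleus, whereas a small core of complexes I, III, IV and V is encoded by mitochondrial DNA (mtDNA) and transcribed as long polycistronic RNAs that are cut at the tRNA genes between them. Neural stem cells are known to rely largely on glycolysis and to raise respiration when they differentiate.

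Members were the gene symbols that start with Nduf followed by a, b, c, s or v and a digit, with Uqcr, with Cox and a digit from 4 to 8 followed by a, b or c, with Atp5, or with mt-Nd, mt-Co, mt-Cytb or mt-Atp, and the symbols Sdha to Sdhd, Cyc1 and Cycs. This rule gave 93 of the 12588 symbols of the table, 80 nuclear-encoded and 13 mtDNA-encoded, and all 93 are accounted for here. By symbol, the nuclear-encoded members fell into complex I (36 genes), complex II (4), complex III (9), complex IV (14) and complex V (17), and the mtDNA-encoded members into complex I (7), complex III (1), complex IV (3) and complex V (2). Symbols follow the older nomenclature of the table, in which Ndufa4 stands with complex I although its protein was later assigned to complex IV. The symbol assignment also places Atp5s, a coupling factor, and Cox7a2l, a factor of respiratory supercomplexes, among the subunits. Cycs, Cox4i2, Cox7b2, Cox8c and Ndufa4l2 were not analysed here.

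The 5 RNA-Seq libraries came from untreated, proliferating NSPC cultures of the C57BL/6J strain, grown in medium that held the growth factors FGF-2 and EGF at 20 ng/ml each. Replicates 1 and 4 were labelled WT (genotype p75NTR+/+, littermates of the knockouts), and 3 further libraries, replicates 1, 2 and 4, were labelled p75NTR-/-. The sample labels give E12.5 embryos as the source, whereas the methods of the study describe adult subventricular zone NSPCs. The name p75NTR-/- stands for a constitutive knockout line, in which the deletion is not limited to a cell type. The study describes 4 sequencing replicates from separate NSPC preparations, whereas 2 WT and 3 p75NTR-/- libraries were available here. The replicate numbers are not tied to a litter, day or batch in the sources used here.

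Level is given as a normalized count, which is a read count divided by the size factor of the library and summed over the listed transcripts of a gene, or as TPM, which also accounts for transcript length and was used to compare genes. The libraries held between 11688229 and 14452399 counts, so that 1 count corresponded to 0.981 to 1.20 normalized counts. Ngfr, the targeted gene, had normalized counts of 0.98 and 2.08 in the libraries labelled WT and of 9.89, 141 and 251 in p75NTR-/- replicates 1, 2 and 4, which goes against the labels. Which part of the gene is deleted was not given in the sources used here. WT and p75NTR-/- therefore stand for the labels in every comparison here. All 8 markers of neural stem/progenitor cells (Nes, Sox2, Vim, Fabp7, Pax6, Sox9, Hes5 and Msi1) had a mean of 50 or more normalized counts, with a summed TPM between 7502 and 8953. Of the markers of other cells, 5 of 5 for astrocytes (summed TPM 466 to 952), 3 of 6 for neurons (629 to 979), 2 of 6 for oligodendrocytes (52 to 166), 1 of 4 for endothelium, 1 of 4 for fibroblasts and mural cells and 0 of 5 for microglia were listed in the table, and those for endothelium and for fibroblasts and mural cells summed to a TPM of at most 1. Single genes carried much of these sums. Fabp7 had a mean TPM of 6627 among the progenitor markers. Among the neuron markers, Map2 had 817, Tubb3 8.9 and Snap25 6.0.

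The mtDNA-encoded members lie so close together that reads can be shared between neighbours, and 3 pairs overlap in the annotation (GRCm38). The overlaps are shown because each pair is compared below. In these sequences of the plus strand, capitals mark the bases annotated to both genes of the pair. The 43 bases shared by mt-Atp8 and mt-Atp6, which are translated from 1 messenger RNA, lie at chrM:7927-7969. The 7 bases shared by mt-Nd4l and mt-Nd4 lie at chrM:10167-10173. The 14 bases shared by mt-Nd5 and mt-Nd6, which are read from opposite strands, lie at chrM:13552-13565.
mt-Atp8 and mt-Atp6: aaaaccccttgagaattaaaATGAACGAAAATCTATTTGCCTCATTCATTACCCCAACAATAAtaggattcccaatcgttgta
mt-Nd4l and mt-Nd4: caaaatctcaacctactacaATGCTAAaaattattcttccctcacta
mt-Nd5 and mt-Nd6: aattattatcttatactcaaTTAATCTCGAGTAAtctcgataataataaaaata

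The subunit genes were among the most abundant transcripts of these cells. Together they took 16.3%, 15.8%, 16.9%, 15.5% and 15.7% of the summed TPM in WT replicates 1 and 4 and in p75NTR-/- replicates 1, 2 and 4, an order of libraries that is kept below wherever 5 values follow each other. The 13 mtDNA-encoded members alone took between 9.26% and 10.2%, and the 80 nuclear-encoded members between 6.24% and 6.73%. The median over members of the mean TPM was 4919 for mtDNA-encoded and 396 for nuclear-encoded members, compared with 14.6 over all gene sums. Both genomes contribute to complexes I, III, IV and V, and in each of these the mtDNA-encoded members had the higher median TPM.

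**Figure D1:**
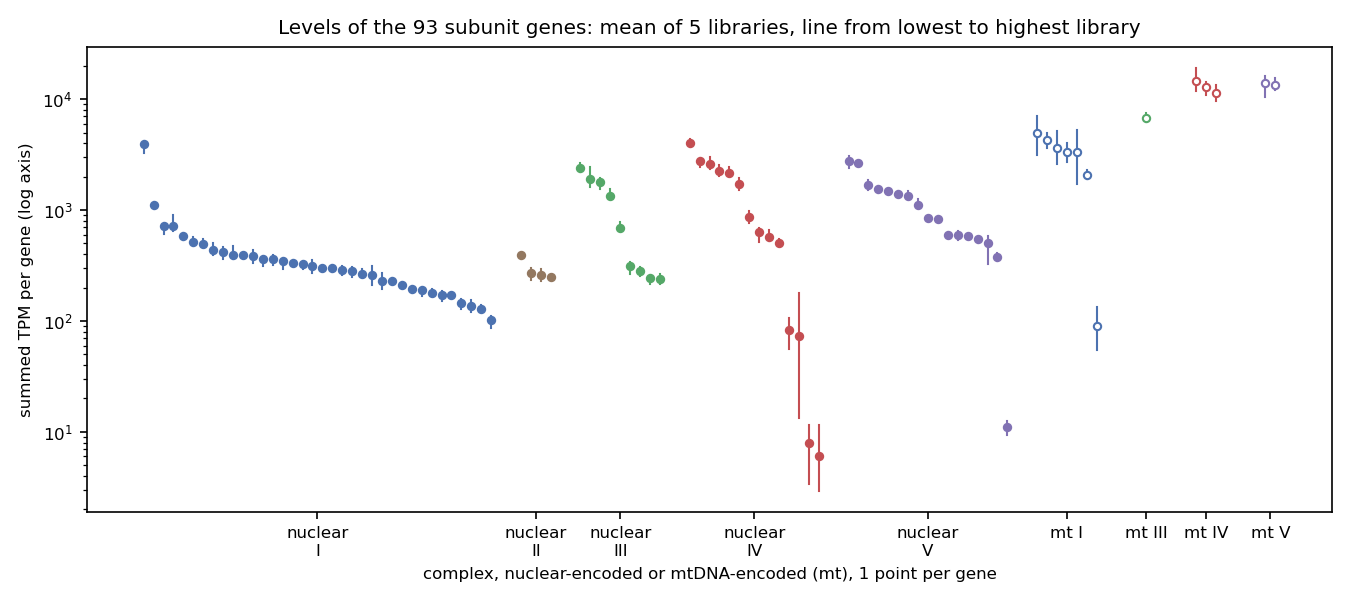
Summed TPM (log axis) of the 93 subunit genes, ordered within each complex, with nuclear-encoded members as filled and mtDNA-encoded members as open points. Points are means of the 5 libraries and lines run from the lowest to the highest library; mtDNA-encoded members sit at 2060 TPM or above except mt-Nd6 at 90.4, and nuclear-encoded members lie between 6.1 and 4031.

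mt-Co1, the catalytic subunit of complex IV that holds the heme-copper site, had the highest mean TPM of all 12588 gene sums (14719 ± 3460, SD, n = 5). It was followed by mt-Atp8 (14124 ± 2330) and mt-Atp6 (13322 ± 1430), which are subunits of the proton-conducting part of ATP synthase. mt-Co2, which carries the copper center that accepts electrons from cytochrome c, had a TPM of 12790 ± 1420, and mt-Co3 one of 11377 ± 1410 (SD, n = 5). Within these 5 genes, neighbours in this order differed by less than the larger SD of the pair. mt-Cytb, the only complex III subunit encoded by mtDNA, was lower at 6810 ± 476.

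The 7 mtDNA-encoded subunits of complex I, which build its membrane arm, were lower again. Mean TPM values were 4919 ± 1620 for mt-Nd1, 4300 ± 490 for mt-Nd4l, 3635 ± 1010 for mt-Nd2, 3342 ± 472 for mt-Nd4, 3340 ± 1510 for mt-Nd3 and 2060 ± 151 for mt-Nd5 (SD, n = 5). From mt-Nd1 down to mt-Nd3, neighbours differed by less than the larger SD of the pair. mt-Nd6, the only protein gene on the other strand of mtDNA, was lowest with 90.4 ± 31.8 TPM. All these levels are of polyadenylated RNA, and how far polyadenylation of each gene contributes to them was not tested.

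Among nuclear-encoded members placed in complex I by symbol, Ndufa4, whose protein was later assigned to complex IV, was highest with a mean TPM of 3954 ± 394. Ndufc2 followed with 1115 ± 74.0, and Ndufs7, an iron-sulfur subunit near the ubiquinone site, was lowest with 103 ± 10.9 (SD, n = 5). The 4 subunits of complex II, which has no mtDNA-encoded subunit, lay close together, from 395 ± 20.8 for Sdhc, a membrane anchor, to 248 ± 11.0 for Sdhb, its iron-sulfur subunit. In complex III the range ran from Uqcrh, the hinge protein, with 2407 ± 224 to Uqcrc1, a core protein, with 240 ± 17.1. Cox7c was highest in complex IV with 4031 ± 334, and Cox6a2 lowest with 6.1 ± 3.6. In complex V, Atp5mpl, a small membrane subunit, was highest with 2780 ± 275 and Atp5s lowest with 11.1 ± 1.14.

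Paralogous subunits differed widely in level. Subunit c, whose ring turns within ATP synthase, is encoded by 3 nuclear genes that give the same mature protein with different import sequences, of which Atp5g3 was the highest with 1672 ± 154 TPM, followed by Atp5g2 with 854 ± 27.4 and Atp5g1 with 508 ± 104 (SD, n = 5). For each pair of complex IV paralogs, the form known from most tissues was higher in every library. Cox6a1 had a mean TPM of 865 ± 98.8 against 6.1 ± 3.6 for the heart and muscle form Cox6a2. Cox7a2 stood at 1736 ± 146 against 8.0 ± 3.66 for the heart and muscle form Cox7a1, and Cox7a2l at 573 ± 52.7. Cox6b1 had 2779 ± 206 against 83.1 ± 23.9 for Cox6b2, a form known from testis. Cox8a had 2259 ± 227 against 72.7 ± 67.1 for the heart and muscle form Cox8b. Cox7b, listed without its paralog, had 2147 ± 173, and Cox4i1, whose symbol lies outside the rule, had 1086. Cox6a2 and Cox7a1 were the 2 of 93 members with a mean below 50 normalized counts.

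Whether the loss of p75NTR goes along with a change of these genes is the comparison for which the libraries were made. No member passed the criteria of a mean of at least 50 normalized counts, a change of at least 1.5-fold and an adjusted p under 0.05 (limma, Benjamini-Hochberg over 12588 gene sums). Over the whole table, 1 gene sum passed (0.00794%). At an unadjusted limma p under 0.05 there were 0 of 93 members, against 262 of all gene sums (2.08%), and the smallest p of a member was 0.13. Adjusted p-values (limma) of the members ran from 0.934 to 0.999.

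**Figure D2:**
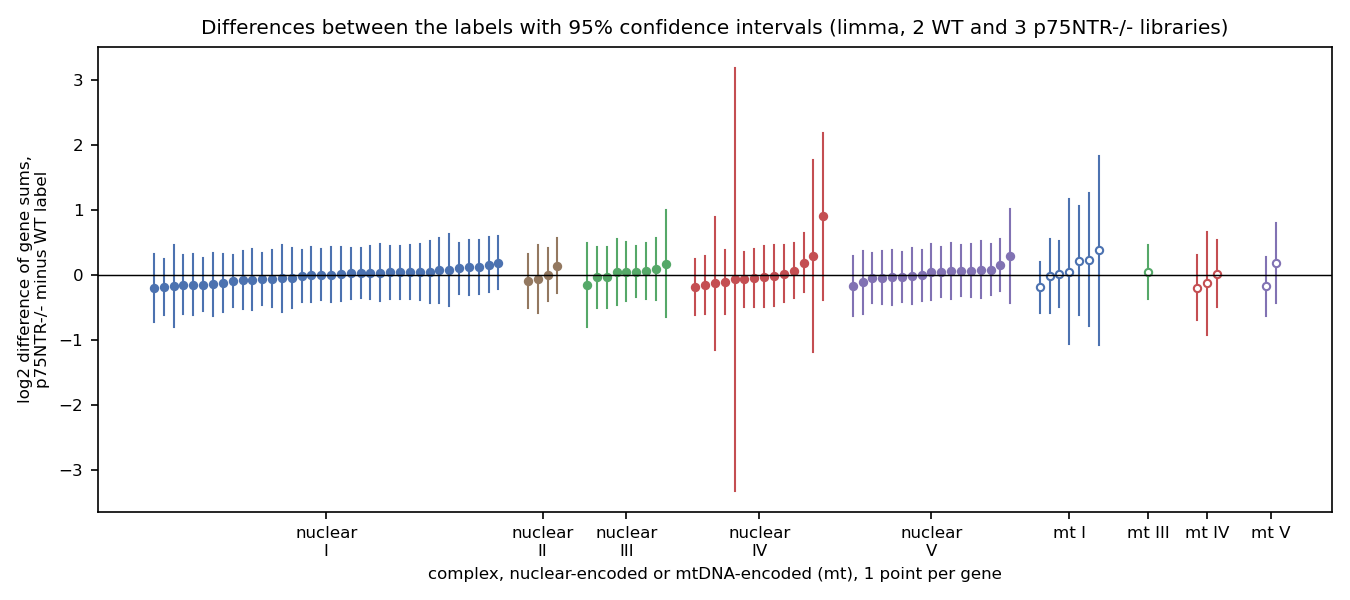
Log2 difference of each gene sum between the labels (p75NTR-/- minus WT) with its 95% confidence interval, ordered within each complex; filled points are nuclear-encoded, open points mtDNA-encoded. All 93 intervals include 0, and the widest belongs to Cox8b (-3.31 to 3.19).

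For most members the data bound the difference as well. The 95% interval of the log2 difference lay wholly within a 2-fold change in either direction for 83 of 93 members (7579 of all 12588 gene sums), and wholly within a 1.5-fold change for 63 (2512 of all gene sums). The median log2 difference was 0.01 over the nuclear-encoded members, 0.03 over the mtDNA-encoded members and 0.00 over all gene sums. Between the libraries numbered 1, the medians were 0.03 for nuclear-encoded and 0.16 for mtDNA-encoded members, and between those numbered 4 they were 0.04 and -0.10. By complex, the nuclear-encoded medians were 0.01 for complex I, -0.02 for II, 0.05 for III, -0.03 for IV and 0.05 for V. In total 50 members had a positive and 43 a negative difference.

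Among nuclear-encoded members with a mean of 50 or more normalized counts, the 2 with the largest difference in each complex showed no separation by label except for Ndufb6. Ndufb6, an accessory subunit in the membrane arm of complex I, had normalized counts of 1418 and 1626 in WT and of 1763, 1729 and 1723 in p75NTR-/- libraries. The p75NTR-/- libraries were all higher, but the difference was small (log2 0.19, SE 0.16, adjusted p = 0.934 in limma). Ndufa1, another accessory subunit of complex I, had 1512 and 1083 against 1172, 1074 and 1106. Here WT replicate 1 stood above the other 4 libraries, which lay close together (log2 difference -0.20, SE 0.21). In complex II, Sdhc (log2 difference -0.09, SE 0.16) and the other membrane anchor Sdhd (0.15, SE 0.17) had overlapping groups.

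Uqcrq and Uqcr11 had the largest differences in complex III. Uqcrq, which sits beside cytochrome b, had normalized counts of 2225 and 1538 in WT and of 1819, 2919 and 1719 in p75NTR-/- libraries (log2 difference 0.18, SE 0.32). Uqcr11, a small membrane subunit, had 2521 and 1663 against 1754, 2136 and 1686 (log2 -0.15, SE 0.25). In both genes the 2 libraries numbered 4 were the lowest. In complex IV, Cox5a, a matrix-side subunit, had 3257 and 3985 against 4120, 3862 and 4420 (log2 0.20, SE 0.18), with overlapping groups, and Cox7a2l had a log2 difference of -0.18 (SE 0.17).

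Atp5g1 had normalized counts of 1784 and 3158 in WT and of 3044, 2749 and 2997 in p75NTR-/- libraries. WT replicate 1 was thus alone in being low, and the log2 difference of 0.30 (SE 0.28) came down to -0.08 between the libraries numbered 4, against 0.77 between those numbered 1. Atp5g2 and Atp5g3 had log2 differences of -0.03 (SE 0.15) and 0.09 (SE 0.17). Atp5s, with 121 and 134 against 124, 99.7 and 119, differed by -0.16 (SE 0.18).

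Counts of members whose groups did not overlap were near those over all genes. Of the 91 members with a mean of 50 or more, 5 were higher in all 3 p75NTR-/- than in both WT libraries (7.76% of all gene sums of that level were) and 3 were lower in all (6.96%). The 5 were Atp5a1, Atp5f1, Atp5o, Ndufa8 and Ndufb6, and the 3 included Ndufa13 and mt-Nd5. The largest of these 8 differences was that of Ndufb6. mt-Nd5, a proton-pumping subunit, had 84233 and 89719 against 77729, 73628 and 78332, a log2 difference of -0.18 (SE 0.15).

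Most nuclear-encoded members varied little between the 5 libraries. The median ratio of the highest to the lowest library was 1.20-fold over the 68 nuclear-encoded members with a mean of 1000 to 10000 normalized counts, compared with 1.40-fold over the 2848 gene sums of that range. Steadiest of those with a mean of 50 or more were Atp5l, a stator subunit of ATP synthase, with 5492, 5238, 5547, 5243 and 5288 normalized counts, and Ndufs8, an iron-sulfur subunit, with 1926, 1817, 1806, 1907 and 1929. p75NTR-/- replicate 2 was the lowest library for 29 of 78 nuclear-encoded members (37.2%), compared with 15.9% of all gene sums, and p75NTR-/- replicate 1 the highest for 26 (33.3% against 22.0%). By complex, the median ratio of the highest to the lowest library lay between 1.16-fold (complex V) and 1.27-fold (complex IV).

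The mtDNA-encoded members as a whole stood in a nearly constant proportion to the nuclear-encoded ones. The ratio of summed TPM, mtDNA-encoded to nuclear-encoded, was 1.45 and 1.52 in WT and 1.51, 1.49 and 1.49 in p75NTR-/- libraries. In normalized counts the ratio was 4.34, 4.91, 4.33, 4.34 and 4.57, so that both libraries numbered 4 were the highest on that scale. Without mt-Co1 the TPM ratio was 1.27, 1.21, 1.33, 1.28 and 1.21, and the libraries numbered 4 were the lowest.

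Beneath this total, individual mtDNA-encoded members varied between libraries, and for several of them the 2 libraries numbered 4 lay apart from the other 3. mt-Nd3 (chrM:9459-9806), a small subunit at the joint of complex I, had normalized counts of 15790, 6938, 21012, 15607 and 7735. Both libraries numbered 4 lay below the other 3, with a log2 difference of -1.24. mt-Nd1 (chrM:2751-3707), which lies next to the ubiquinone site, had 99649, 66784, 134232, 108446 and 61862, a log2 difference of -0.82 between libraries numbered 4 and the others. mt-Nd2 (chrM:3914-4951), a proton-pumping subunit, had 71716, 56044, 100553, 77125 and 52438, with a difference of -0.60. mt-Nd6 (chrM:13552-14070, minus strand) had 845, 525, 715, 1051 and 442, a difference of -0.84. The 4 genes thus shared their low libraries, although mt-Nd3 is not next to the others and mt-Nd6 is read from the other strand.

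Other members went the opposite way. mt-Co1 (chrM:5328-6872) had 411703, 656748, 409259, 428591 and 622090 normalized counts, and both libraries numbered 4 were higher than the other 3 (log2 0.62). mt-Co2 (chrM:7013-7696), with 136345, 180660, 152449, 151859 and 176129, differed by 0.28. mt-Nd4 (chrM:10167-11544), a proton-pumping subunit, differed by 0.31, with 74107, 109002, 88703, 84266 and 95281. mt-Nd4l (chrM:9877-10173), which shares 7 bases with it, had 12075, 16541, 14898, 13999 and 14245 and a difference of 0.17, with overlapping groups.

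The overlapping pair in ATP synthase was split. mt-Atp8 (chrM:7766-7969) had 24166, 15841, 24349, 21800 and 20829, so that the libraries numbered 4 were the lowest (log2 -0.37), whereas mt-Atp6 (chrM:7927-8607) had 193267, 159160, 167161, 145662 and 154900 and overlapped (-0.09). mt-Co3 (chrM:8607-9390; -0.02), mt-Cytb (chrM:14145-15288; -0.00) and mt-Nd5 (chrM:11742-13565; 0.10) also had overlapping groups. mt-Nd5 thus did not follow mt-Nd6, with which it shares 14 bases on the opposite strand.

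**Figure D3:**
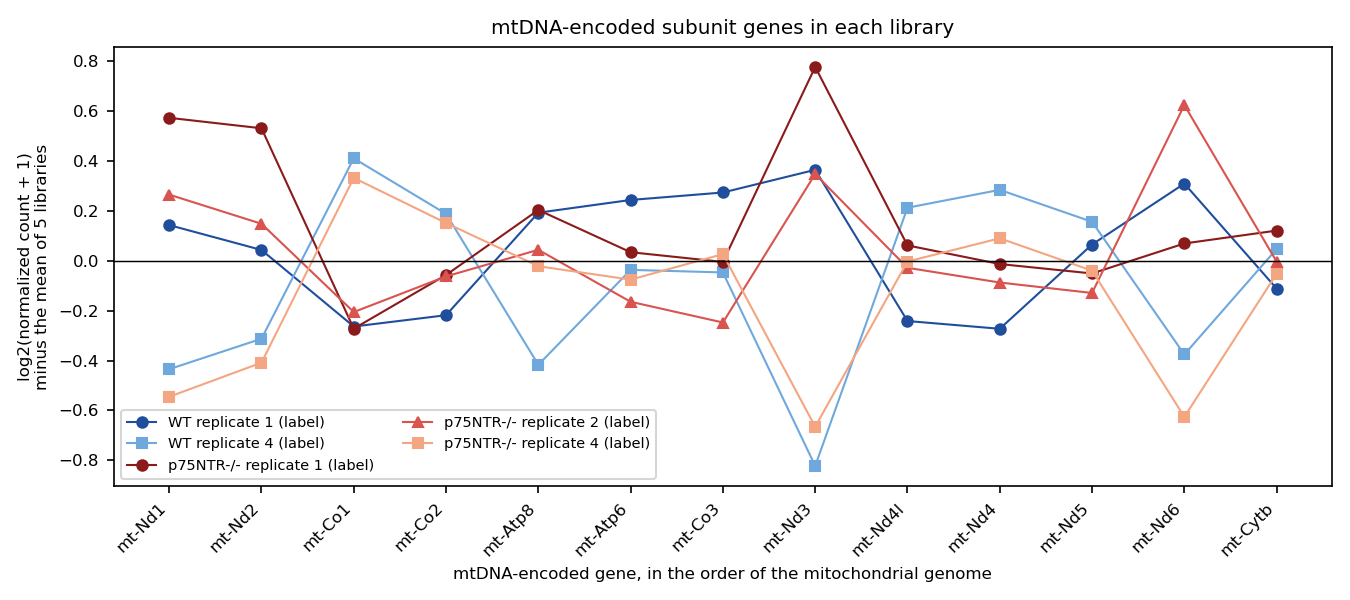
The 13 mtDNA-encoded members in the order of the mitochondrial genome; each line is a library, and the axis is log2(normalized count + 1) minus the mean of the 5 libraries. The libraries numbered 4 (squares) lie below the others for mt-Nd1, mt-Nd2, mt-Nd3, mt-Nd6 and mt-Atp8, whichever label they carry. They lie above the others for mt-Co1, mt-Co2 and mt-Nd4.

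In total, 5 of 13 mtDNA-encoded members differed by at least 0.5 on the log2 scale between the 2 libraries numbered 4 and the other 3, compared with 2 of 78 nuclear-encoded members (Cox8b and Cox6b2) and 21.0% of all gene sums with a mean of 50 or more. This grouping was described and not tested. Scaling all libraries to the same total or using TPM changed the sign of none of the 13, and quantile normalization changed that of mt-Co1, which it sets equal in all libraries because mt-Co1 is the highest gene in each. Since each label holds 1 library numbered 4, the differences by label of these genes were uncertain: mt-Nd3 had a log2 difference between the labels of 0.38 (SE 0.57), mt-Nd1 of 0.24 (SE 0.40) and mt-Co1 of -0.12 (SE 0.31). All 3 signs rest on WT replicate 4. Without that library the differences were -0.21 for mt-Nd3, -0.045 for mt-Nd1 and 0.21 for mt-Co1, and without WT replicate 1 they were 0.98, 0.53 and -0.46. Between the libraries numbered 1, mt-Nd1, mt-Nd2 and mt-Nd3 were higher in p75NTR-/- by 0.43, 0.49 and 0.41, while between those numbered 4 the differences were -0.11, -0.10 and 0.16.

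Astrocyte markers were examined beside this pattern. Gfap, the astrocyte filament protein, had normalized counts of 241, 680, 11.9, 1.2 and 746. Aqp4, the astrocyte water channel, had 395, 696, 69.3, 114 and 566. Thus 2 of the 5 astrocyte markers were higher in both libraries numbered 4 than in the other 3. Of all gene sums with a mean of 50 or more, 23.0% were. The remaining astrocyte markers overlapped. S100b went the other way in the mean, with 1421, 347, 475, 369 and 410 (log2 -0.74, libraries numbered 4 minus the others). Aldh1l1 (log2 0.28) and Slc1a2 (0.61) were higher in the mean. Between the labels, all 5 astrocyte markers were lower in the mean of the p75NTR-/- libraries (median log2 -0.84), and 0 were called in limma. The summed TPM of the 5 markers was 598 and 661 in the libraries numbered 4 and between 466 and 952 in the others. None of the 5 was at 0, but Gfap in p75NTR-/- replicate 2 lay below 3 counts, which are 3.6 normalized counts there. Markers of other cells were divided as well. Of the 8 progenitor markers, Vim (log2 0.91) and Sox9 (0.76) were higher without overlap in the libraries numbered 4, and Hes5 (-2.62) was lower. Map2 (-0.68) was lower among the 3 listed neuron markers, and 0 of the 2 listed oligodendrocyte markers were divided. The part of any of these markers in the pattern of the mtDNA-encoded members was not tested. In bulk RNA, a smaller number of cells of a type and less RNA per cell cannot be told apart.

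Separation by replicate number was not more frequent among the members than over all genes. Of the 91 members of both genomes with a mean of 50 or more, 15 were higher in both libraries numbered 4 than in the other 3 (23.0% of all gene sums were) and 17 were lower (22.0%). The 12 nuclear-encoded members that were higher were Ndufs1, Ndufs3, Ndufs7, Ndufv1, Ndufv2, Ndufv3, Ndufa9 and Ndufa10 of complex I, Sdha and Sdhb of complex II, Uqcrc2 of complex III and Cox6b2. Sdha, the flavoprotein of complex II, had 11267, 13673, 11713, 10487 and 13822 normalized counts (log2 0.30). The 12 that were lower were Ndufa2, Ndufa11, Ndufb4, Ndufb7, Ndufb11, Ndufc2, Ndufs6, Uqcr10, Uqcr11, Uqcrq, Cox8b and Atp5g3. Ndufb7, a subunit on the intermembrane side of complex I, had 1329, 1050, 1256, 1444 and 1077 (log2 -0.33).

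Among nuclear-encoded members, the difference by replicate number went along with transcript length. The most abundant listed transcript had a median length of 1621.5 bases in the 12 higher members, of 597.5 bases in the 12 lower members and of 800.5 bases in the 54 that overlapped. Over 78 nuclear-encoded members, Spearman's rho between this length and the log2 difference (libraries numbered 4 minus the others) was 0.52, given as a description since the genes share their libraries. Over 10775 gene sums with a mean of 50 or more it was -0.10. Members under 800 bases (37 genes) had a median log2 difference of -0.05 and those of 1200 bases or more (25 genes) one of 0.13, whereas over all gene sums the same length classes had medians of 0.00 and 0.01. Length was examined after the values had been seen. Against the difference between the labels, rho was 0.19 over the members.

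**Figure D4:**
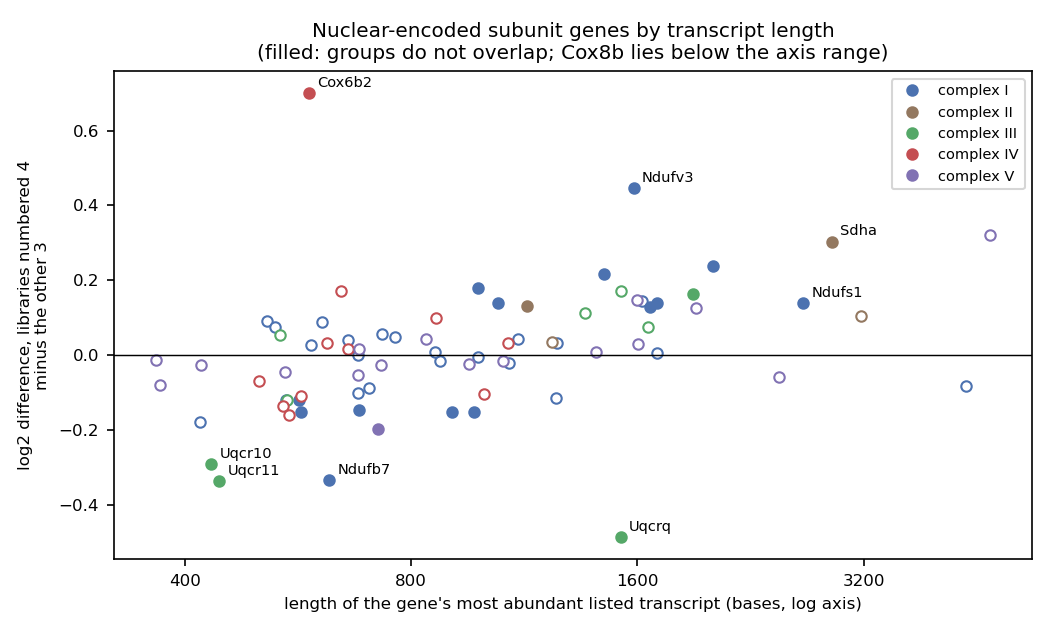
Length of the most abundant listed transcript (log axis) of 77 nuclear-encoded members against the log2 difference between the 2 libraries numbered 4 and the other 3; filled points are members whose groups do not overlap, and Cox8b (-2.64) lies below the axis range. Of the filled points, those below 0 are mostly the shorter ones, apart from Uqcrq, and those above 0 mostly the longer ones, apart from Cox6b2.

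Cox8b (chr7:140898945-140900446, minus strand) varied more than any other member, with 299, 21.9, 141, 111 and 30.6 normalized counts, a range of 3.72 on the log2 scale. Both libraries numbered 4 were low (log2 -2.64), WT replicate 1 was highest, and the difference between the labels was -0.06 (SE 1.27). It changed to 1.80 without WT replicate 1 and to -1.92 without WT replicate 4. Cox6b2 went the other way, with 96.2, 160, 126, 75.7 and 156 (log2 0.70 between libraries numbered 4 and the others). The other tissue-restricted forms were near the limit of counting: Cox6a2 had 13.7, 9.36, 25.7, 36.0 and 11.6, and Cox7a1 7.85, 25, 23.8, 10.8 and 21.1, where 3 counts correspond to 2.94 to 3.6 normalized counts. For Cox6a2 the difference between the labels was 0.91 (95% interval -0.38 to 2.20), the largest of all members in size, and its groups overlapped.

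At the level of transcripts, 134 were listed for the 93 members, with 30 members having more than 1. None of the 134 was called in limma (3 of 22227 in the table, 0.0135%), and 1 had an unadjusted p under 0.05 (3.14% of all transcripts had). That transcript, ENSMUST00000185732 of Ndufs1, the largest iron-sulfur subunit of complex I, is a minor one with 1.96 and 11.4 normalized counts in WT and 93, 72.1 and 25.4 in p75NTR-/- libraries. All p75NTR-/- libraries were higher (log2 3.22, SE 0.90, adjusted p = 0.962 in limma), its mean of 40.8 was below the minimum of 50, and it made up at most 1.42% of the Ndufs1 sum. Of the 108 member transcripts with a mean of 50 or more, 20 were higher (21.1% of all such transcripts) and 22 lower (20.4%) in both libraries numbered 4 than in the other 3.

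Atp5c1, the central stalk of ATP synthase, had 3 listed transcripts on the minus strand of chromosome 2. They differ in exon 9, a 37-base exon at chr2:10056770-10056806 that is known to be left out in heart and skeletal muscle, and the coding ends are shown because the choice decides the last residues. The last 24 coding bases of exon 8 are in lower case and the bases after them, up to the stop codon, in capitals.
Atp5c1 ENSMUST00000114897 (with exon 9): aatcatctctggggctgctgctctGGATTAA
Atp5c1 ENSMUST00000026887 (without exon 9): aatcatctctggggctgctgctctGTAA

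Transcripts with exon 9 made up 48.1%, 52.1%, 55.6%, 56.3% and 50.5% of the Atp5c1 sum, so both forms were about equally abundant in every library and the labels overlapped. The 2 transcripts with this exon, which differ from each other only in their first exon, were divided by replicate number. ENSMUST00000114896, with a first exon of 732 bases, had 0, 2200, 0, 0 and 1201 normalized counts, at least 536-fold higher in the libraries numbered 4 when 3 counts per library are taken as the limit for those at 0. ENSMUST00000114897, with a first exon of 163 bases, had 4924, 2991, 6020, 5687 and 4139, so that it was low where the other was present. Their sum with exon 9 was 4924, 5191, 6020, 5687 and 5340.

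A like division was present in Atp5a1, the alpha subunit, which alternates with the catalytic beta subunit. Its ENSMUST00000114748, with a first exon of 588 bases, had 3.93, 2330, 45.5, 0 and 1335 normalized counts, whereas the gene sum, carried by ENSMUST00000026495 with a first exon of 382 bases, was 29399, 28629, 31768, 30047 and 29738. The minor transcript took 8.14% and 4.49% of the sum in the libraries numbered 4 and at most 0.14% in the others.

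Ndufa12, an accessory subunit of complex I, had 2 transcripts of 4 exons each. Their last exons had 268 or 763 bases and their first exons 127 or 176 bases. The shorter, ENSMUST00000179990, took 32.2%, 6.41%, 15.7%, 47.4% and 6.69% of the sum, and was lowest in both libraries numbered 4. The gene sum itself varied little, with 2105, 2450, 2528, 2478 and 2415. In Uqcrq, the transcript with the shorter last exon (198 against 1229 bases), ENSMUST00000109019, took 9.31%, 28.3%, 16.8%, 5.47% and 23.7%, and was highest in both libraries numbered 4. The 2 transcripts also differ in their first exon. The Uqcrq gene sum in normalized counts was lower in these libraries (log2 -0.49), whereas its summed TPM of 1277, 1333, 1271, 1536 and 1350 overlapped.

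In Ndufb5, ENSMUST00000122290, which begins within the gene, took 31.1%, 37.5%, 36.9%, 20.4% and 39.8% of the sum. p75NTR-/- replicate 2 was the lowest and the libraries numbered 4 the highest. Ndufv3, a subunit of the NADH-binding module, is known for a long and a short protein form that differ by 1 large exon. The transcript with this exon of 1092 bases (chr17:31527310-31528401), ENSMUST00000046288, took 65.2%, 57.6%, 53.3%, 56.5% and 56.7% of the normalized counts of the gene. In TPM, which accounts for its greater length, it had 40.0, 44.6, 28.4, 32.9 and 43.7. The main short form, ENSMUST00000064798, had 171, 261, 194, 201 and 268 TPM and was the more abundant form in every library.

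**Figure D5:**
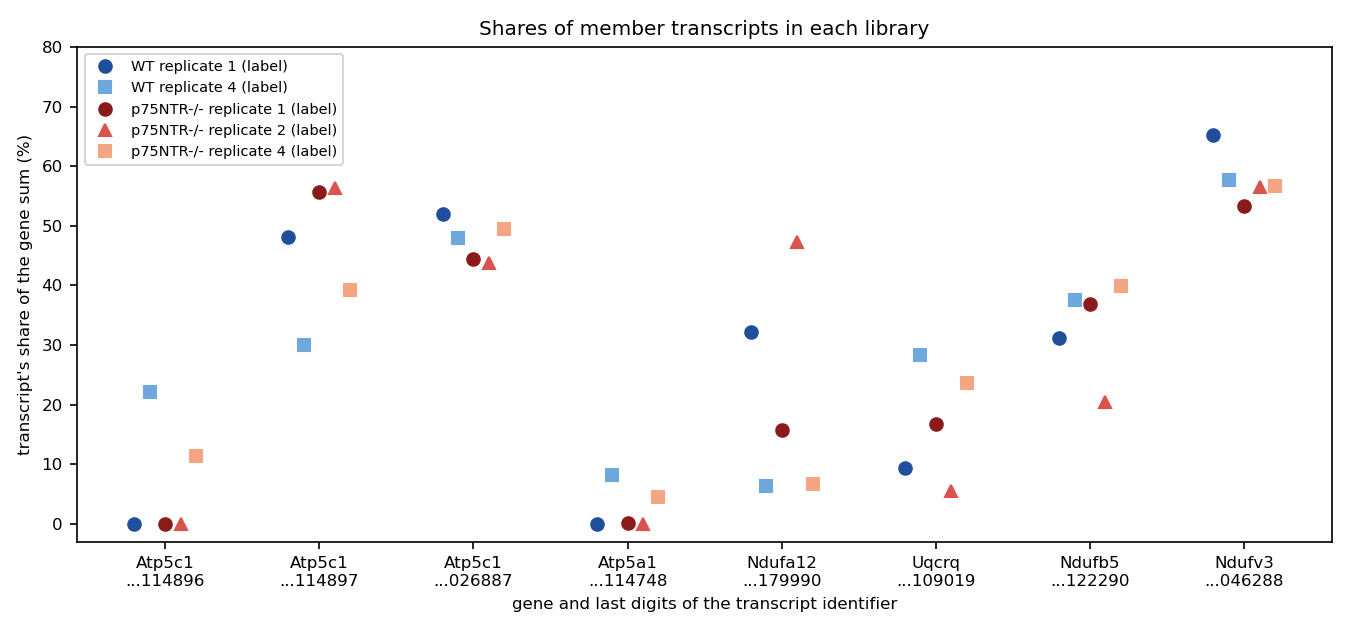
Share of the gene sum (percent) taken by 8 transcripts of 6 subunit genes, with 1 point per library and squares for the libraries numbered 4. The Atp5c1 transcript ENSMUST00000114896 is at 22.1% and 11.4% in these and at 0% in the other 3, while the Ndufa12 transcript ENSMUST00000179990 is at 6.41% and 6.69% there and at 15.7% to 47.4% in the others.

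Genes that act on the complexes were described from lists. None of the 46 assembly factors listed in the table (of 47), which insert cofactors and build the complexes, was called in limma, and their median log2 difference between the labels was 0.06. 30 were higher and 16 lower in the mean of the p75NTR-/- libraries, and of the 43 with a mean of 50 or more, 5 were higher and 2 lower without overlap (7.76% and 6.96% of all gene sums of that level). Ndufaf4, an assembly factor of complex I, had the largest value, with 211 and 385 against 568, 411 and 317 normalized counts (log2 0.56), and its groups overlapped. By replicate number, 13 of the 43 were higher and 2 lower in both libraries numbered 4 (23.0% and 22.0% of all gene sums).

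Of 26 genes for mtDNA maintenance, transcription and RNA processing, 0 were called, and the median was 0.17, with 21 of 26 in the direction of p75NTR-/-. The median between the libraries numbered 1 was 0.41 and between those numbered 4 it was -0.05. Polrmt, the mitochondrial RNA polymerase, had 303 and 288 against 405, 503 and 269, and Lrpprc, which stabilizes mitochondrial messenger RNAs, 1877 and 2148 against 2497, 2160 and 2042. Tfam, which packages and transcribes mtDNA, had 332 and 448 against 501, 440 and 385. In all 3 genes p75NTR-/- replicate 4 was at or below a WT library. Of the 26 genes, 3 (Elac2, Fastkd2 and Polg2) were higher and 0 lower in all p75NTR-/- than in both WT libraries. Over all gene sums with a mean of 50 or more, these shares were 7.76% and 6.96%.

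The 12 regulators, which are transcription factors and coactivators of respiratory genes, had a median of 0.01 and 0 calls. Myc had the largest difference with 452 and 1012 against 1667, 1338 and 975 (log2 0.94, unadjusted p = 0.0798 in limma). Ppargc1a, the coactivator PGC-1alpha, had 1116 and 954 against 1162, 833 and 860. Of the 12 regulators, 2 were higher and 0 lower in all p75NTR-/- than in both WT libraries (7.76% and 6.96% of all gene sums with a mean of 50 or more). These were Pprc1, with 310 and 800 against 1059, 827 and 810 (log2 0.84), and Nrf1. Nrf1, the factor named after its sites in respiratory genes, had 363 and 392 against 423, 484 and 429 (log2 0.24). In the citrate cycle, 0 of 13 genes were called, with a median of 0.06. The 4 subunit or inhibitor genes outside the rule that were listed (Cox4i1, Ndufab1, Usmg5 and Atpif1, of 8) had a median of 0.04 and 0 calls. At an unadjusted limma p under 0.05, 0 genes of any of these 5 lists were found.

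Promoter windows from 250 bases before to 50 bases after the start (RefSeq, GRCm38.p6) were matched for 67 of the 80 nuclear-encoded members (72 windows) and searched on both strands. The letters CGCATGCGC, the core of sites for nuclear respiratory factor 1, were present in 11.1% of the member windows, in 3.61% of 12898 windows of genes in the table and in 1.75% of all 32851. The YY1 core AAGATGGCG was in 9.72%, 2.90% and 1.40%, the GABP core CCGGAAG in 22.2%, 17.0% and 8.86%, and the ERR core TCAAGGTCA in 2.78%, 0.233% and 0.423%. The Sp1 core GGGCGG was in 38.9%, 63.1% and 35.7%. A match of letters does not show binding. Parts of 3 windows are shown, with the first core in capitals, because they belong to a steady and a variable member and to a subunit of ATP synthase with both cores. Atp5g2 varied by 0.13 on the log2 scale between libraries and Uqcr11 by 0.60, and the windows of Uqcr11 and Atp5k also held the GABP core.
Atp5g2 (chr15:102671060-102671108, minus strand): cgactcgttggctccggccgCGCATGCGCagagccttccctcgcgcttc
Uqcr11 (chr10:80406798-80406846, minus strand): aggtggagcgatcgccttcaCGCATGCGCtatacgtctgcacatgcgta
Atp5k (chr5:108434420-108434468, minus strand): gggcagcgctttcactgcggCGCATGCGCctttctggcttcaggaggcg

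Some members share sequence with other genes, to which reads could be assigned. By sequence comparison of annotated transcripts, 34 of 93 members shared at least 100 bases at 98% identity or more with a transcript of another gene, 7 of them mtDNA-encoded. For 5 members such a gene was itself listed in the table, and none of these 5 was mtDNA-encoded. They were Atp5f1 (shared with Wdr77), Ndufb11 (Rbm10), Ndufb2 (Braf and Gm42420), Ndufb5 (Mrpl47) and Ndufb6 (Smim27). The comparison covered both strands and did not set neighbouring genes on the opposite strand apart from copies elsewhere. The library kit was stranded, and whether the value of Ndufb6 above was affected was not tested.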

How the data were processed

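Polyadenylated RNA was sequenced from the 5 cultures (500 ng input, stranded mRNA kit). Per the labels and the study's methods, the authors quantified reads with Salmon 0.10.2 on GRCm38.p6 and normalized them with DESeq2 1.22.0. The deposited signal of a library holds counts after division by its size factor, with 0.5 added, as the values show, and this 0.5 was subtracted. The deposited TPM signal was used for levels between genes. The deposited score (base mean), log2 fold changes and p-values are the authors' own and were not used. Of 22530 lines, 303 repeat a transcript (8 of members) and were dropped, leaving 22227 transcripts and 12588 gene sums; 0 sample columns stayed unused. The design had assumed genes, so gene sums and transcripts were both fitted.

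Limma 3.58.1 (R 4.3.3, lmFit and eBayes, no covariate) was run on log2(value + 1) over all gene sums or transcripts, so fold changes of low genes are understated. A run on simulated data held only larger fold changes and no shift by replicate number. It therefore cannot show how well changes near 1.5-fold were found here. With 2 against 3 libraries an exact permutation test cannot go below p = 0.1, so none was used. The members, lists and tests were chosen with earlier results of these data known. Named were called members, all mtDNA-encoded members, the highest and lowest nuclear-encoded member and, at a mean of 50 or more, the 2 with the largest difference in each complex, and paralog groups; others were named after their values were seen, and 1 member is counted but not reported by name here. Coordinates and exons are from GENCODE (vM21, GRCm38), matched for all 134 member transcripts, and promoters from RefSeq. Shared stretches were sought on both strands with blastn 2.17.0+. Other tools were Python 3.11.15, pandas 2.3.3 and numpy 2.4.6. Limits given for a count of 0 are 3 counts and cover counting error only. Alternatives were other pseudocounts, filters, scalings, omitted libraries, a replicate block and TPM.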

Additional observations from a re-analysis of the deposited data

How the results depend on the processing

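Under each of the 15 alternatives for gene sums and the 13 for transcripts, 0 subunit genes and 0 of their transcripts were called in limma, the smallest adjusted p (limma) of a member being 0.32 for gene sums and 0.153 for transcripts, both without WT replicate 4. Unadjusted p-values under 0.05 were found for at most 1 of 93 gene sums and 6 of 134 transcripts. The median of the nuclear-encoded members ran from -0.023 to 0.038 on the log2 scale when each library was left out and that of the mtDNA-encoded members from -0.045 (without WT replicate 4) to 0.044 (without p75NTR-/- replicate 2). The difference between the labels in the mtDNA-to-nuclear ratio (p75NTR-/- minus WT) was 0.012 in TPM and -0.216 in normalized counts, and the TPM value ran from -0.024 to 0.049 when each library was left out, an alternative added after the data were seen. With a replicate block the medians were 0.04 for both, with 0 calls. The libraries share only a number. Deviations from the label means correlated at 0.256 for the libraries numbered 1 and 0.476 for those numbered 4. Between WT replicate 1 and p75NTR-/- replicate 2 the value was 0.482. Deviations of 2 WT libraries are mirror images, so these values depend on each other and cannot decide whether a number stands for a batch. Of 41 named members, 28 changed sign under some alternative, none of them called. The cause of these shifts was not tested. Over the whole table the count of called gene sums was 1, or 0 with TPM, with the block and without WT replicate 1 or p75NTR-/- replicate 2, and that of called transcripts was 3, 4 with a pseudocount of 0.5, 31 without a minimum mean, and 0 with a pseudocount of 5, with the block, with a variance trend or without any 1 library. Tests with DESeq2 and edgeR were not run, since the values are normalized counts. With 2 and 3 libraries, the interval of the difference reached past 1.5-fold for all but 63 of 93 members.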
